A study of Mus musculus with 32 samples.

Results

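Open chromatin with Zbtb7a knockdown and with a control virus was compared under chronic stress in astrocytes of the mouse orbitofrontal cortex (OFC). ATAC-seq peak regions of stressed mice with the knockdown (Zbt-KD CSDS) were set against those of stressed mice with the control virus (GFP CSDS). Each group was deposited as 1 annotated list of ATAC-seq peaks. Peaks of chromosomes 1 to 19 were merged across gaps of up to 6475 bp, the larger of the smallest gaps in the 2 lists, and merged regions of at least 6507 bp, the larger of the narrowest peaks, were kept. A region of one list with no shared base in the other was called opened where it was found in Zbt-KD CSDS and closed where it was found in GFP CSDS. The rule gave 338 opened regions, 28.6% of the 1183 Zbt-KD CSDS regions (95% Wilson interval 26.1 to 31.2), and 195 closed regions, 18.9% of the 1030 GFP CSDS regions (16.7 to 21.4). The 533 members were taken from 2213 regions of these 2 lists and 6939 regions of all 6 lists. Opened and closed name presence in one list and absence from the other, and the counts themselves follow from the rule.

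Both groups held 5 samples, each pooled from 3 male C57BL/6J mice bought at 6 to 12 weeks of age, and both were exposed to chronic social defeat stress (CSDS) for 10 days. Zbt-KD CSDS mice received AAV6 with a microRNA against Zbtb7a in the OFC, and GFP CSDS mice received AAV6 with a negative control microRNA. Both viruses carried GFP and used the GFAP promoter, which limits the knockdown to transduced cells with an active GFAP promoter. Astrocytes were collected with magnetic beads against the surface antigen ACSA-2, and cells by the methods, or nuclei by the sample labels, went into the transposase reaction. The comparison groups used below were the unstressed GFP control and Zbt-KD control mice of the same experiment (5 samples each) and the GFP and ZBT groups of the overexpression (OE) experiment (6 samples each), in which AAV6 drove GFP or ZBTB7A from the GFAP promoter and, by the methods, the mice went through a subthreshold variant of social defeat. The lists gave no value per sample and no read number, so depth was unknown, no spread between samples could be given, and no test between groups was possible. The intervals cover counting error over regions only, and neighbouring regions are not independent.

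ATAC-seq reads DNA that a transposase can reach, and a peak is a stretch with more insertions than its background. ZBTB7A, also known as LRF, is a zinc finger protein of the POK family that binds GC-rich sites with the core GACCC and recruits corepressor complexes that deacetylate histones. It is best known for its roles in blood cell fate and in silencing fetal globin, and it also affects the access of NF-kB to inflammatory promoters. Astrocytes clear glutamate, buffer potassium, supply metabolites to neurons and change their shape and secretions when they become reactive.

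The sequences printed here come from the 4 strongest regions per direction with a coding gene start that the RefSeq promoter table holds, and from the centres of regions at named genes, and they show what kind of DNA the members hold. The first group are the 200 bases before the RefSeq start of each gene (GRCm38.p6, the same coordinates as mm10), 5′ to 3′ on the gene's strand, with each GACCC or GGGTC in capitals. Ptp4a1 encodes a tyrosine phosphatase (chr1:30949756-30949955, minus strand), Psma1 a proteasome subunit (chr7:114276117-114276316, minus strand), Gbe1 the glycogen branching enzyme (chr16:70313749-70313948, plus strand), and Olfr16 an olfactory receptor (chr1:172956568-172956767, plus strand), and all 4 starts lay in opened regions. Fam118b encodes a protein of Cajal bodies (chr9:35267806-35268005, minus strand), Mettl16 an RNA methyltransferase (chr11:74770663-74770862, plus strand), Olfr1501 an olfactory receptor (chr19:13839172-13839371, minus strand), and 2410141K09Rik was the other gene (chr13:66441119-66441318, minus strand). These 4 starts lay in closed regions.
Ptp4a1, opened: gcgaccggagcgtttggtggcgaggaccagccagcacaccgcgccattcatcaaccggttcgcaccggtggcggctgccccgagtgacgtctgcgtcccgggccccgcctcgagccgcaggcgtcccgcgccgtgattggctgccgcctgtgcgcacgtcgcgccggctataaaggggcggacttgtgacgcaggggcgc
Psma1, opened: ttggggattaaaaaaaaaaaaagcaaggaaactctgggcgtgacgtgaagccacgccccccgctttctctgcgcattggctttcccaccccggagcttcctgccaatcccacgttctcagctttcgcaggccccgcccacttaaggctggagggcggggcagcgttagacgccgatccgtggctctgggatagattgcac
Gbe1, opened: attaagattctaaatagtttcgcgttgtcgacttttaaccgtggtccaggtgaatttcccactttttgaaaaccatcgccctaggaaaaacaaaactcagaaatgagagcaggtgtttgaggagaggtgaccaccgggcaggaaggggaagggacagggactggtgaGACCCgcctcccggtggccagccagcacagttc
Olfr16, opened: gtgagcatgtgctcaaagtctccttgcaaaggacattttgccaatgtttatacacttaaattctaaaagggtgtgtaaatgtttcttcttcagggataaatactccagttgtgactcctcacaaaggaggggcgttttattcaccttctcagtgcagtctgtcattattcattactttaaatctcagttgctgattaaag
Fam118b, closed: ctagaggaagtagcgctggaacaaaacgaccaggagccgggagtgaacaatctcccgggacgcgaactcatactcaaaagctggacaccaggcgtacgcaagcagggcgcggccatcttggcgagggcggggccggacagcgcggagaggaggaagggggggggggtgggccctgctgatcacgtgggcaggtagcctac
Olfr1501, closed: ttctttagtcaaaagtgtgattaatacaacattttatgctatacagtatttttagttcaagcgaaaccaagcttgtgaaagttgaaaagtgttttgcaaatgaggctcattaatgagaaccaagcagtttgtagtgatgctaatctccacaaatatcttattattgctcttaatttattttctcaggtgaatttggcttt
2410141K09Rik, closed: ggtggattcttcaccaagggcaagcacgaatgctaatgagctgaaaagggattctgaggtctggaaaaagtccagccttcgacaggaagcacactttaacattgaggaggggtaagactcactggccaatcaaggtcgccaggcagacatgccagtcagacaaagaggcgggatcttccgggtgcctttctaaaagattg
Mettl16, closed: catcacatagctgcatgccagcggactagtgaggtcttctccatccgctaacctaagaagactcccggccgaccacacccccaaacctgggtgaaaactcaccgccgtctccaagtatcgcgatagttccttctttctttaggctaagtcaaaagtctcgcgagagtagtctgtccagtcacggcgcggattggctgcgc

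In both directions these promoters ranged from CpG-rich to CpG-poor. Ptp4a1 held 30 CpG in the 200 bases at 72.5% GC, Fam118b held 16 at 65.0%, and Psma1 and Mettl16 held 14 each at 58.5% and 55.0%. Olfr16 and Olfr1501 held 1 CpG each, at 38.0% and 31.0% GC. The core GACCC, searched on both strands as GACCC and GGGTC, which cannot overlap each other, was found in the Gbe1 promoter and not in the other 7 stretches. Over all coding genes that started inside members, 41 for opened and 43 for closed regions, 32 and 33 were in the promoter table, and 8 (25%, 13.3 to 42.1) and 5 (15.2%, 6.65 to 30.9) held the core. Of all 19171 coding promoters of chromosomes 1 to 19 in the table, 35.9% held it in the same 200 bases.

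The second group are the central 150 bases of a region, on the plus strand, with the same letters in capitals. They are shown because most members lay far from any promoter. The stretches come from the strongest opened region nearest to Cd200 (chr16:45354585-45354734), the strongest opened region inside Cntnap2 (chr6:46510266-46510415), the closed region nearest to Ndst3 (chr3:123886692-123886841) and the strongest closed region inside Map2 (chr1:66242494-66242643).
Cd200, opened: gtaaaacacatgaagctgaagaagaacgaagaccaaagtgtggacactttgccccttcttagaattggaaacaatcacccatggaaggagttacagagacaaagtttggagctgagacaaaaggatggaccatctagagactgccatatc
Cntnap2, opened: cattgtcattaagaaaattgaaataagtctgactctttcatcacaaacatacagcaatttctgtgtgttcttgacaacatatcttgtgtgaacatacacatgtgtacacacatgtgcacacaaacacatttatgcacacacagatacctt
Ndst3, closed: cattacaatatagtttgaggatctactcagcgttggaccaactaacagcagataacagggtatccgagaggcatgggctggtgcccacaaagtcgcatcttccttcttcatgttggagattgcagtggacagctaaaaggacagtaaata
Map2, closed: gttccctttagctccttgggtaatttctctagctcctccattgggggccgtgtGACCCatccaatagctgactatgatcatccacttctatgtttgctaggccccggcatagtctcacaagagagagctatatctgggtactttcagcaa

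In the soft-masked genome, 100% of the Cd200 and Map2 stretches, 57.3% of the Cntnap2 stretch and 0% of the Ndst3 stretch were repeat-masked. The core was found in 60 of 338 opened centres (17.8%, 14 to 22.2) and in 21 of 195 closed centres (10.8%, 7.15 to 15.9). Of the shared centres without unknown bases, 15.3% in Zbt-KD CSDS and 13.6% in GFP CSDS held it. Over whole regions, the density of the core was 1.08 per kb in opened, 1.04 in closed, 1.1 in shared regions of either list and 1.25 over chromosomes 1 to 19.

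Members were narrow and weak regions of their lists. Opened regions were 6.507 to 293 kb wide with a median of 14.35 kb, against a median of 41.48 kb over all Zbt-KD CSDS regions, and together they covered 8.995 Mb, 5.11% of the length of that list. Closed regions were 6.582 to 301.3 kb wide with a median of 18.97 kb, against 64.83 kb over all GFP CSDS regions, and covered 7.44 Mb or 4.31% of the length. The fold enrichment, the authors' ratio of a peak to its background and comparable only within a list, had a median of 1.655 in opened regions (1.456 to 2.686) and 1.986 in shared regions of Zbt-KD CSDS. It had a median of 1.716 in closed regions (1.539 to 2.655) and 2.086 in shared regions of GFP CSDS. The lists were also built at different resolution. Every opened region was 1 deposited peak, while closed regions were merged from a median of 3 peaks and at most 20.

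**Figure D1:**
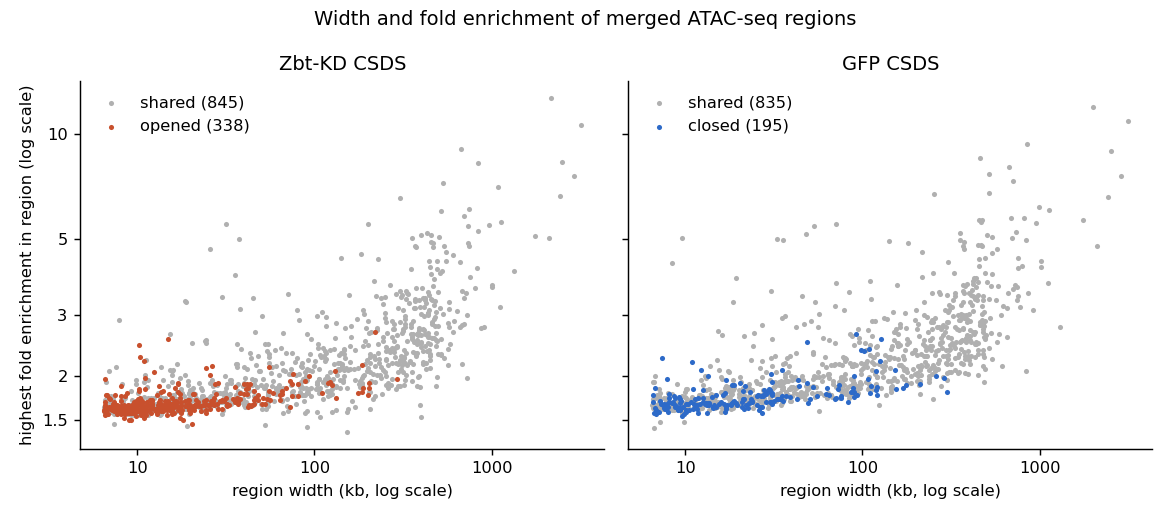
Each point is 1 merged region, with its width in kb on the x axis and the highest fold enrichment of its peaks on the y axis (both log scales), for Zbt-KD CSDS (left) and GFP CSDS (right). Opened (orange) and closed (blue) regions lie at the narrow and weak end, with medians of 14.35 and 18.97 kb and folds of 1.655 and 1.716, and shared regions are grey.

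The width minimum bears on the 2 directions unequally. Merging left 569 GFP CSDS regions below 6507 bp, 341 of them without overlap in Zbt-KD CSDS, and 0 Zbt-KD CSDS regions below it. The opened regions just inside it were nearest to 4930548G14Rik (6507 bp), Nmbr (6509 bp) and Izumo3 (6547 bp), and the narrowest closed region was nearest to Prl2c5 (6582 bp). GFP CSDS regions nearest to Zscan4f (6480 bp), Olfr172 (6468 bp) and Prl2c2 (6463 bp) lay just outside. Of the opened regions, 78 (23.1%, 18.9 to 27.9) held a GFP CSDS peak too narrow to count, and 0 of the closed regions held a Zbt-KD CSDS peak. The balance of the directions kept its order with a doubled width minimum, at 213 opened (23.1%) and 158 closed regions (18.4%), and turned under 2 other choices. With the lists as deposited, without merging and without a width minimum, 260 peaks were opened (22%) and 1307 closed (38.3%), and with only the upper 50% of peaks by fold enrichment, 59 regions were opened (9.97%) and 268 closed (29.7%).

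The opened region of highest fold enrichment held, among others, the starts of Ptp4a1 and of Phf3, which encodes a transcription elongation regulator (chr1:30854298-31075492, 221.2 kb, 2.6855-fold, q = 1.16e-31). It was present in all 4 of the other lists, and narrow GFP CSDS peaks covered 1.94% of it. The next was 54.39 kb from the start of Cd200, which encodes a neuronal membrane glycoprotein that restrains microglia (chr16:45347247-45362072, 14.83 kb, 2.5653-fold). It was found in no other list and held no GFP CSDS peak. The others among the first 6 included regions nearest to Gm5458 on a satellite repeat (2.4707-fold) and to Snord116l2, a small nucleolar RNA gene of the imprinted Prader-Willi cluster (2.2757-fold). Also among them were a region on chromosome 10 listed under Timm8a1, the symbol of a mitochondrial import chaperone gene (2.2205-fold), and one nearest to the transcript 4930533P14Rik (2.1516-fold). Of these 4, the Gm5458 and 4930533P14Rik regions held narrow GFP CSDS peaks. Besides Ptp4a1, the widest opened regions lay at the odorant receptor gene Olfr16 and the pentraxin gene Apcs (293 kb), in Lrrc4c, which encodes a netrin-G ligand of the synapse (204.1 kb), and in Malrd1, which encodes a regulator of bile acid synthesis (202.3 kb).

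The closed region of highest fold enrichment held the starts of Fam118b, of Foxred1, which encodes an assembly factor of mitochondrial complex I, and of Rpusd4, which encodes a mitochondrial pseudouridine synthase (chr9:35208702-35300277, 91.58 kb, 2.6547-fold, q = 1.23e-52). It was 1 deposited peak and was found in Zbt-KD control only. The next lay 222.1 kb from the start of Ndst3, which encodes a heparan sulfate sulfotransferase (chr3:123823404-123950129, 11 merged peaks, 2.5615-fold). A region of 48.5 kb that overlapped Abcb1a and ran past its end, listed as nearest to the neighbouring Abcb1b, followed, and both genes encode the drug efflux pump P-glycoprotein (chr5:8710705-8759203, 2.5219-fold). The others among the first 6 were nearest to Tusc1 (2.403-fold), 4930587E11Rik (2.3766-fold) and Elavl2, which encodes a neuronal RNA-binding protein (2.3634-fold), at distances of 499.6, 220.2 and 362.1 kb. The widest closed regions were nearest to 4930474N05Rik (301.3 kb), Tspan13, which encodes a tetraspanin (290.3 kb, over Agr2, Agr3, Tspan13, Bzw2 and Ankmy2), Rgmb, which encodes a coreceptor of bone morphogenetic proteins (260 kb), and Gprin3, which encodes a G protein-regulated inducer of neurite outgrowth (210.9 kb).

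Most members were intergenic. By the authors' annotation of the strongest peak, 267 opened regions (79%, 74.3 to 83) and 145 closed regions (74.4%, 67.8 to 80) were intergenic, against 78.6% and 77.1% of all regions of the respective list. Introns took 68 opened (20.1%) and 46 closed regions (23.6%), against 18.6% and 20% of all regions. A promoter was listed for 0 opened and 0 closed regions, and for 15 of 845 and 6 of 835 shared regions. A coding gene start lay inside 29 opened regions (8.58%, 6.04 to 12.1) and 24 closed regions (12.3%, 8.41 to 17.7), against 23.9% and 26.1% of all regions. These shares moved with the processing: with the upper 50% of peaks, 19 of 59 opened regions (32.2%) held a coding start, and with the lists as deposited, 49 of 1307 closed peaks (3.75%) did. The members were also shorter, and per length opened regions held 4.67 coding starts per Mb, closed regions 5.78, shared regions 6.64 and 6.54, and chromosomes 1 to 19 held 8.45. The median distance to a transcription start site (TSS) was 180.4 kb for opened and 99.54 kb for closed regions. Over all regions of the respective list it was 143.9 and 110.9 kb. The nearest gene was a noncoding RNA for 29% of opened regions (24.4 to 34) and for 17.9% of closed regions (13.2 to 23.9), against 24.2% and 23% of all regions of the respective list. GC content was 39.2% in opened and 39.8% in closed regions, with 39.8% over all regions of each list and 41.9% over the autosomes. Repeat-masked bases made up 43.2% of opened and 38.8% of closed regions. They made up 46.6% and 46.3% of all regions of the respective list, and 33.5% of the autosomes. A LINE repeat was listed at the centre of 37% of opened (32 to 42.2) and 30.8% of closed regions (24.7 to 37.6), against 33.2% and 31.7% of all regions, and both intervals hold these.

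Apart from those named above, the opened regions with a coding start and the highest folds held Gm21738 (2.4707-fold), Psma1, which encodes a proteasome subunit (2.0688-fold), Gbe1 (2.035-fold), the odorant receptor gene Olfr58 (1.9309-fold), Nkain2, which encodes a partner of the sodium pump (1.9033-fold), Ppp1r14c, which encodes an inhibitor of protein phosphatase 1 (1.8991-fold), the predicted gene Gm4181 (1.8895-fold), and Glra3, which encodes a glycine receptor subunit, together with Adam29 (1.8481-fold). In the same range were Olfr742 (1.8481-fold) and Hacd1, which encodes an enzyme of fatty acid elongation (1.8389-fold). The closed regions with a coding start held Olfr1501 among 7 olfactory receptor genes (2.2182-fold), 2410141K09Rik and Mettl16 (2.0862-fold each), Tyrp1 and Lurap1l (2.073-fold), Ptgfr, which encodes the prostaglandin F receptor (1.9124-fold), Gprin3 (1.8968-fold), Ugt2b37, which encodes a glucuronosyltransferase (1.8749-fold), and the zinc finger genes Zfp934 and Zfp935 (1.8617-fold). Ston2, which encodes an endocytic adaptor for synaptic vesicles, also started inside a closed region (1.856-fold). The Ptp4a1, Gm21738, Nkain2 and Olfr742 regions held narrow GFP CSDS peaks, and the other 8 of these 12 opened regions held none.

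Nearest genes were placed in 16 groups by patterns of their symbols, and 127 opened and 67 closed regions had a gene in at least 1 group. The patterns missed genes of the same kinds in both directions. Each count is therefore of matched symbols and not of all genes with that function. No group was given to 62.4% of opened and 65.6% of closed regions, against 63.3% and 62.5% of all regions of the respective list. The share over all regions of the same list stands after the word against. Olfactory and vomeronasal receptors, the chemosensory receptors of the nose, were nearest to 25 opened regions (7.4%, 5.06 to 10.7, against 6.76% of all) and 4 closed regions (2.05%, 0.801 to 5.15, against 5.44%). Of all opened and closed regions, 10 and 3 overlapped a gene of the group. Of the opened regions, 8 lay in 1 receptor cluster on chromosome 9 (chr9:19004061-20123563), with folds of 1.52 to 1.93. Of these 8, 0 held a GFP CSDS peak of any width and 0 were in GFP control. Found in Zbt-KD control were 5 of them, in OE experiment GFP 1 and in OE experiment ZBT 8. The shares of opened regions lay close to those of their list in most groups, and every interval of an opened group held the share of its list except that for metabolism. The patterns of that group left out enzyme genes such as Hacd1 and Gbe1, so the exception holds for matched symbols only.

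**Figure D2:**
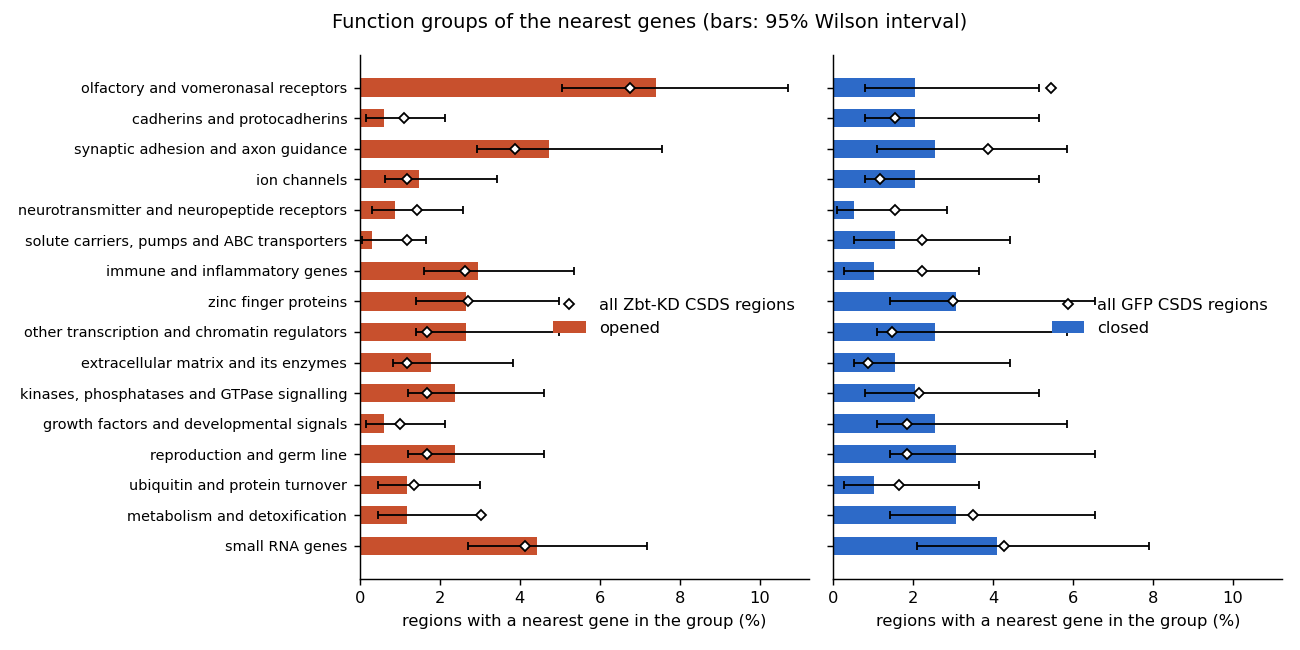
Bars give the percent of opened (left, 338) and closed (right, 195) regions with a nearest gene in each of 16 function groups, lines give 95% Wilson intervals, and diamonds give the percent of all regions of the same list. Olfactory and vomeronasal receptors were nearest to 7.4% of opened and 2.05% of closed regions, with list shares of 6.76% and 5.44%.

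Genes of synaptic adhesion and axon guidance were nearest to 16 opened regions (4.73%, 2.93 to 7.55, against 3.89%) and 5 closed regions (2.56%, 1.1 to 5.86, against 3.88%). The strongest opened ones were at Sema6d, which encodes a semaphorin (1.9723-fold, with narrow GFP CSDS peaks over 50.37% of it), Lrrc4c (1.9171-fold), and Unc5d, which encodes a netrin receptor (1.9033-fold). None of the 16 opened regions had its TSS within 100 kb, the closest being Epha6, which encodes an ephrin receptor, at 129.8 kb, and 8 overlapped a gene of the group. The strongest closed ones were at Chl1, which encodes an adhesion molecule of the L1 family (1.8881-fold, 175.9 kb wide), 1368 kb from the start of Tenm4, which encodes a teneurin (1.7825-fold), and 80.52 kb from that of Cntnap5a (1.7693-fold). Cntnap5a was listed in both directions, with 2 closed regions and 3 opened regions (1.67 to 1.9-fold). Cadherins were nearest to 2 opened (0.592%, against 1.1%) and 4 closed regions (2.05%, against 1.55%). Cdh6 (1.6551-fold) and Cdh7 (1.6275-fold) were nearest to opened regions, and Cdh6 (1.9673-fold), Fat3 (1.7165 and 1.6768-fold) and Cdh7 (1.6768-fold) to closed ones, all of them at least 354.4 kb from the gene's start, so that both Cdh6 and Cdh7 were listed in both directions.

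Ion channels were nearest to 5 opened (1.48%, against 1.18%) and 4 closed regions (2.05%, 0.801 to 5.15, against 1.17%). The opened ones were at the sperm calcium channel subunit genes Catspere2 (1.8619-fold) and Catsperb (1.8068 and 1.7378-fold) and at Kcnj3, which encodes an inward rectifier potassium channel (1.6688 and 1.5999-fold). One closed region was listed with Kcnj3 as its nearest gene (1.558-fold), 381.1 kb from its start and inside Galnt13. Of the 4 closed ones, 3 covered 252 kb of a stretch of 270.8 kb at Lrrc8b, Lrrc8c and Lrrc8d, overlapping the first 2 genes and running past their ends, and before the start of Lrrc8d, whose nearest region had its strongest peak centred 29.9 kb upstream. These genes encode subunits of the volume-regulated anion channel through which swollen cells, astrocytes included, release chloride and glutamate (chr5:105424126-105694880, 1.83 to 2.01-fold). All 3 were found in both lists of the OE experiment and in 0 of GFP control, and 1 was found in Zbt-KD control. Matched genes of transmitter and neuropeptide receptors were nearest to 3 opened regions (0.888%, against 1.44%), among them those at Glra3 (1.8481-fold) and Grik2, the kainate receptor gene (1.5861-fold, 1723 kb from its start). They were nearest to 1 closed region (0.513%, against 1.55%), 259.6 kb from the start of the somatostatin receptor gene Sstr1 (1.6504-fold). The patterns did not match the neuropeptide receptor gene Nmbr, which was nearest to 2 opened regions. Solute carriers and pumps were nearest to 1 opened region (0.296%, against 1.18%), 129 kb from the start of the zinc transporter gene Slc39a10 (2.124-fold, with narrow GFP CSDS peaks), and 3 closed regions (1.54%, against 2.23%), at Abcb1b, the amino acid transporter gene Slc7a12 (1.8353-fold) and Slc35f1 (1.6637-fold).

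Genes matched as immune were nearest to 10 opened (2.96%, 1.61 to 5.36, against 2.62%) and 2 closed regions (1.03%, 0.282 to 3.66, against 2.23%). A gene of the group was overlapped by 3 opened and 2 closed regions. Cd200 had 3 opened regions in 102 kb (chr16:45326146-45428128), at 2.5653, 1.8109 and 1.7792-fold, and the last of them held its start. None of the 3 held a GFP CSDS peak of any width, and 1 was found in another list, that of OE experiment GFP. The cytokine gene Il15 was nearest to 2 opened regions (1.6551 and 1.5999-fold), at 126 and 170.1 kb and found in no other list, and the start of Tlr11, the Toll-like receptor for profilin, lay in another (1.5999-fold). The remaining opened ones included Psg23, which encodes a pregnancy-specific glycoprotein (1.5992-fold), and the Skint genes Skint11 (1.7131-fold) and Skint5 (1.5999-fold), which act on skin T cells. The closed ones matched by symbol were at the interferon-induced gene Ifi202b (1.8221-fold) and the defensin gene Defa34 (1.6372-fold). The immune patterns did not match Reg3g and Ncr1, nearest to closed regions, or Gvin1 and Retnlg, nearest to opened ones. A closed region listed under Gm14851 overlapped the defensin gene Defa25. Extracellular matrix genes were nearest to 6 opened regions (1.78%, against 1.18%), 3 at the metalloproteinase gene Mmp16 (1.7654, 1.7102 and 1.6413-fold, the first with a narrow GFP CSDS peak) and 2 at the syndecan gene Sdc2 (1.7516 and 1.6275-fold), and 3 closed regions (1.54%, against 0.874%), at Ndst3, Mmp16 (1.8221-fold) and the collagen gene Col8a1 (1.6901-fold).

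Zinc finger genes were nearest to 9 opened (2.66%, against 2.7%) and 6 closed regions (3.08%, against 3.01%), led by Zfp97 (1.8206-fold), Zfp804a (1.7102-fold) and Zic4 (1.6688-fold) for opened and by Zfp935 with Zfp934 (1.8617-fold), Zfp994 (1.8353-fold) and Zfp945 (1.7561-fold) for closed. The patterns for other transcription and chromatin genes did not match E2f7 (3 regions), Bhlhe41, Tfec or Mnt on the closed side, or Hnf4g on the opened side. Matched genes of this group were nearest to 9 opened (2.66%, against 1.69%) and 5 closed regions (2.56%, against 1.46%). They included Dmrt2 (1.6688-fold), Smarcad1, which encodes a chromatin remodeler (1.6551-fold), and Tbx18, which encodes a T-box factor (1.6551-fold) on the opened side, where Tbx18 had 4 regions in 81.91 kb, 3 of them with narrow GFP CSDS peaks. The closed side held the pseudogene Pou5f1-rs5 (1.8881-fold), which was nearest to 3 of the 5 closed regions of the group, Smarcad1 (1.7693-fold) and Rarb, the retinoic acid receptor gene (1.6901-fold). Kinase, phosphatase and GTPase genes were nearest to 8 opened (2.37%, against 1.69%) and 4 closed regions (2.05%, against 2.14%), led by Ppp1r14c, Ppp6c (1.7654 and 1.7378-fold) and Arhgef26 (1.7102-fold) for opened and by Rap2b, which encodes a small GTPase (1.8089 and 1.7297-fold), and Map3k7, the TAK1 kinase gene (1.7297-fold), for closed regions. Growth factor and signalling genes were nearest to 2 opened (0.592%, against 1.01%) and 5 closed regions (2.56%, against 1.84%) and included Ptchd3 (1.9447-fold) and the Wnt receptor gene Fzd8 (1.7102-fold) for opened, and Fgf20 (1.8749-fold) and Egfem1 (1.7297 and 1.6901-fold) for closed regions.

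The metabolic patterns passed over Hacd1, Gbe1 and Rpia on the opened side, Nampt and Sptlc3 on the closed side, and G6pd2 on both. Genes matched as metabolic were nearest to 4 opened (1.18%, 0.461 to 3, against 3.04%) and 6 closed regions (3.08%, 1.42 to 6.55, against 3.5%). The opened ones were 3 in Galnt13, which encodes a glycosyltransferase of neural cells (1.9171, 1.6275 and 1.5723-fold, with narrow GFP CSDS peaks over 37.18%, 4.24% and 0.64% of their bases), and 1 at the aldo-keto reductase gene Akr1e1 (1.6688-fold), and the closed ones were led by Ugt2b37 with Ugt2b5 (1.8749-fold), the fatty acid hydroxylase gene Cyp4b1 (1.8089-fold) and the sialyltransferase gene St6gal2 (1.6901-fold). Ubiquitin and protein turnover genes were nearest to 4 opened regions (1.18%, against 1.35%), led by Psma1, Trim2, which encodes a ubiquitin ligase of neurons (1.7927-fold), and Rnf133 (1.6413-fold), and to 2 closed regions (1.03%, against 1.65%), at March11 (1.6768-fold) and Ube2v2 (1.624-fold). Reproductive genes were nearest to 8 opened regions (2.37%, against 1.69%), led by the secretoglobin genes Scgb1b3 (1.8206-fold), Scgb2b26 (1.7792-fold) and Scgb1b24 (1.6964-fold), and 6 closed regions (3.08%, against 1.84%), led by Scgb1b12 (1.7957-fold), Prl2c5 (1.7165-fold) and Scgb1b29 (1.7033-fold). Small RNA genes were nearest to 15 opened (4.44%, against 4.14%) and 8 closed regions (4.1%, against 4.27%), led after Snord116l2 by Mir6379 (1.6964-fold) and Mir6350 (1.6826-fold) for opened and by Mir1187 (1.9145-fold), Mir7094-2 (1.8617-fold) and Mir6342 (1.8089-fold) for closed regions. Within 100 kb of the TSS, 2 of the 15 and 2 of the 8 remained.

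Some genes held several members, and 15 of the 80 coding genes overlapped by opened regions and 10 of the 73 overlapped by closed regions held at least 2. Of the opened regions, 192 (56.8%, 51.5 to 62) lay within 50 kb of another opened region and 11 (3.25%) within 50 kb of a closed one, and of the closed regions, 87 (44.6%, 37.8 to 51.6) lay within 50 kb of another closed region and 9 (4.62%) within 50 kb of an opened one. Shared regions lay within 50 kb of another shared region in 45.2% of cases in Zbt-KD CSDS and 43.7% in GFP CSDS. No comparison share was computed for the distances between opened and closed regions, which by the rule cannot overlap. Cntnap2, which encodes the adhesion protein CASPR2 of the juxtaparanode and synapse (chr6:45059357-47304213, 2245 kb), held 6 opened regions in 187.1 kb of its introns (chr6:46340645-46527733). Their folds were 1.5999, 1.6551, 1.6137, 1.6551, 1.6964 and 1.724 along the gene, and 0 closed, 0 shared regions and 0 GFP CSDS peaks of any width lay with them. Dpp10, which encodes an auxiliary subunit of Kv4 potassium channels, held 5 opened regions in 108.5 kb (1.5861 to 1.6826-fold), found in none of the other 4 lists. Hacd1 held 4 (1.5999 to 1.8389-fold), Malrd1 4 that covered 343.7 kb (1.5999 to 1.8481-fold) and Pdzrn4, which encodes a PDZ domain ubiquitin ligase, 3 that covered 216.8 kb (1.6137 to 1.7378-fold), and 2 of the 4 in Malrd1 and all 3 in Pdzrn4 held narrow GFP CSDS peaks. Doubling the merging gap joined neighbours and left 206 opened regions (22%) and 150 closed regions (17%), so that the number of regions in a run depends on the gap.

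On the closed side, Egfem1, which encodes a secreted protein with EGF-like domains, held 5 regions that covered 134.4 kb (1.6372 to 1.7297-fold). Hs6st3, which encodes a heparan sulfate 6-O-sulfotransferase, held 3 regions (1.6108 to 1.7957-fold), and Vps50, which encodes a subunit of an endosomal recycling complex, held 3 (1.6504 to 1.7561-fold). Map2, the gene of the dendritic microtubule-associated protein and a neuronal marker, held 2 closed regions in its introns (1.7033 and 1.6372-fold), with another upstream whose strongest peak was centred 35.14 kb from the start (1.6108-fold), and the nearest Zbt-KD CSDS peak lay 121.3 kb away. Of the 3 Map2 regions, 0 were found in GFP control, 2 in Zbt-KD control and 3 in both lists of the OE experiment. Galnt13 was the one gene among the 10 drawn with both directions, at 3 opened regions, all with narrow GFP CSDS peaks, and 3 closed regions, and its shared regions lay between the closed ones. Over all coding genes, 3 were overlapped by both opened and closed regions. By nearest gene, 19 genes were listed in both directions, with 34 opened and 24 closed regions at them.

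**Figure D3:**
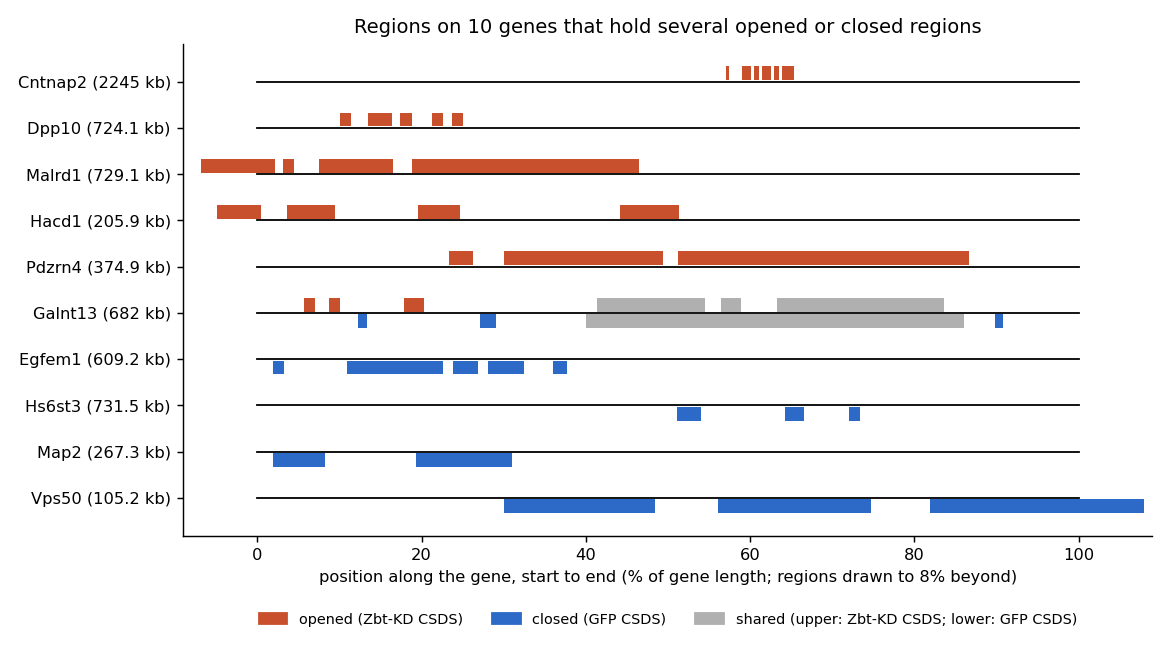
Each row is 1 gene drawn from its start (0%) to its end (100%), with its length in kb, and blocks above the line are Zbt-KD CSDS regions and blocks below it GFP CSDS regions. Cntnap2, Dpp10, Malrd1, Hacd1 and Pdzrn4 hold opened regions (orange) only, Egfem1, Hs6st3, Map2 and Vps50 closed regions (blue) only, and Galnt13 holds 3 of each beside shared regions (grey).

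Chromosomes differed in their shares. Opened regions made up 46.7% of the Zbt-KD CSDS regions of chromosome 15 (21 of 45), 44.9% of chromosome 14 (31 of 69) and 39.1% of chromosome 2 (34 of 87), and the lowest shares were 5% of chromosome 18 (1 of 20) and 10.3% of chromosome 13 (4 of 39). Closed regions made up 30.1% of the GFP CSDS regions of chromosome 6 (28 of 93) and 27.3% of chromosome 11 (6 of 22), and the lowest shares were 8.33% of chromosome 18 (2 of 24) and 9.09% of chromosome 16 (4 of 44). Chromosome 6 also held the opened run in Cntnap2 and the closed runs in Vps50 and at Gprin3.

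**Figure D4:**
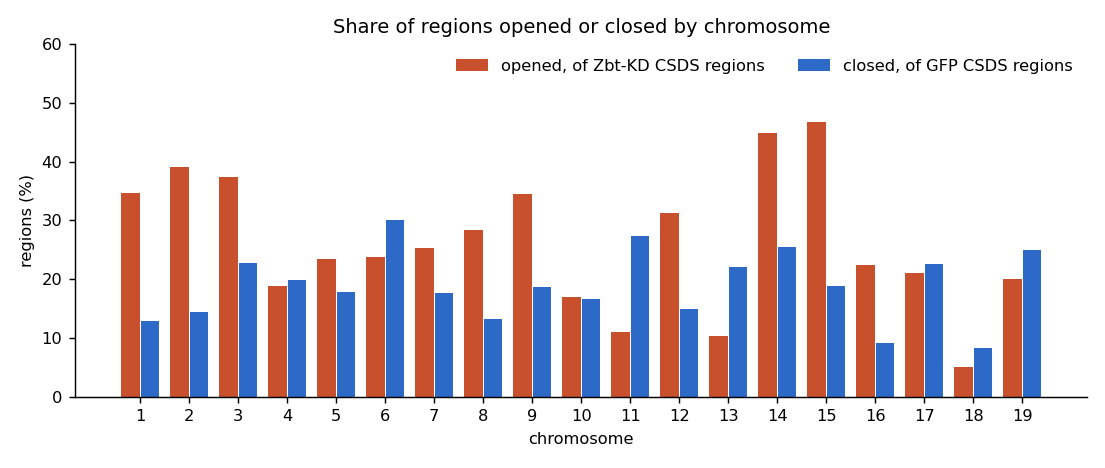
Bars give, for each of chromosomes 1 to 19, the percent of Zbt-KD CSDS regions that were opened (orange) and of GFP CSDS regions that were closed (blue). Opened shares were highest on chromosomes 15 (46.7%) and 14 (44.9%), and closed shares on chromosome 6 (30.1%).

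Members were then looked up in the lists that did not define them. Opened regions were found in Zbt-KD control in 127 cases (37.6%, 32.6 to 42.8), in GFP control in 60 (17.8%, 14 to 22.2), in OE experiment GFP in 188 (55.6%) and in OE experiment ZBT in 154 (45.6%). Closed regions were found in Zbt-KD control in 79 cases (40.5%, 33.9 to 47.5), in GFP control in 38 (19.5%, 14.5 to 25.6), in OE experiment GFP in 144 (73.8%) and in OE experiment ZBT in 131 (67.2%). Over all Zbt-KD CSDS regions the shares were 72.4% in Zbt-KD control, 58.7% in GFP control, 83.3% in OE experiment GFP and 77.6% in OE experiment ZBT, and over all GFP CSDS regions 78.4%, 65.9%, 90.1% and 85.7%. Both directions were found more often in Zbt-KD control than in GFP control, as were shared regions of Zbt-KD CSDS (86.3% and 75%). With only the upper 50% of peaks this order turned for opened regions (28.8% in Zbt-KD control and 32.2% in GFP control), and for closed regions both shares were 35.1%. At the scale used, Zbt-KD control held 1283 regions and GFP control 961, and the width minimum had removed 13 merged regions from Zbt-KD control and 782 from GFP control. With the lists as deposited, 34.2% of opened peaks were found in Zbt-KD control and 26.2% in GFP control. The part of this difference in resolution in the result was not tested. Absent from all 4 were 75 opened (22.2%) and 22 closed regions (11.3%), against 7.1% and 3.3% of all regions of the respective list, and present in all 4 were 19 (5.62%) and 18 (9.23%), against 49% and 57.5%. The opened regions absent from all 4 included the strongest at Cd200, the Glra3 region and those of Il15, Mmp16 and Dpp10, and the closed ones included those at Cyp4b1 and Ifi202b.

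**Figure D5:**
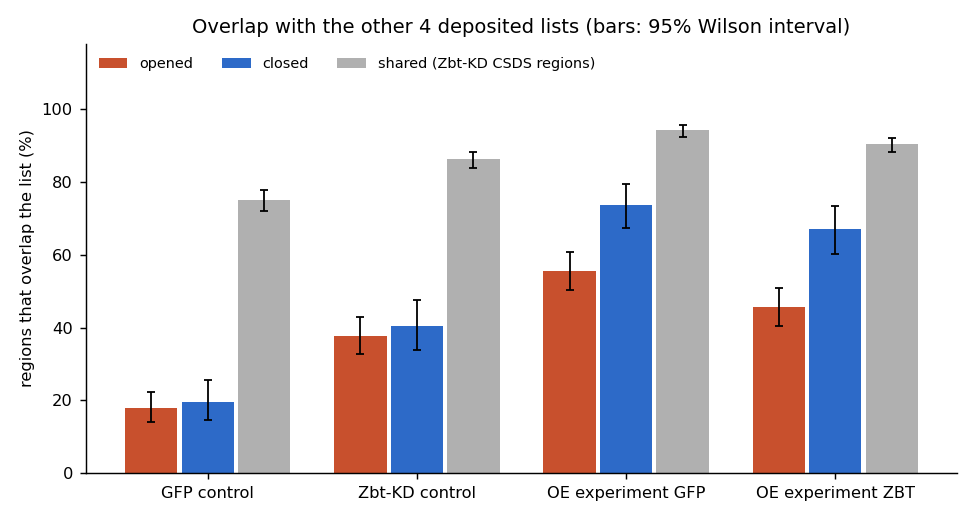
Bars give the percent of opened (orange, 338), closed (blue, 195) and shared Zbt-KD CSDS regions (grey, 845) that overlap each of the other 4 lists, with 95% Wilson intervals as lines. Both opened and closed regions overlap GFP control least, at 17.8% and 19.5%, and OE experiment GFP most, at 55.6% and 73.8%.

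The unstressed groups, which share no list with this comparison, were compared in the same way, with the gap of 6475 bp and the width minimum of 6507 bp kept and not set anew from their own lists. This gave 499 opened regions, found in Zbt-KD control and not in GFP control, and 139 closed regions, found the other way round. Of the regions opened under stress, 74 (21.9%) overlapped 78 of those opened without it (15.6% of 499), and 21 (6.21%) overlapped 19 of those closed without it (13.7% of 139). Of the regions closed under stress, 12 (6.15%) overlapped 10 of those closed without it (7.19%), and 48 (24.6%) overlapped 62 of those opened without it (12.4%). The share of all regions that overlapped these sets was not computed. By list membership, presence in Zbt-KD control with absence from GFP control held for 27.2% of opened and 27.2% of closed regions. Over all Zbt-KD CSDS and GFP CSDS regions it held for 18.8% and 16.8%. The reverse pattern held for 7.4% and 6.15%, against 5.07% and 4.27%. Opened regions made up the larger set without stress, in lists of which the width minimum had removed 782 regions from GFP control and 13 from Zbt-KD control (38.9% of 1283 Zbt-KD control regions, against 14.5% of 961 GFP control regions closed). The overexpression comparison was made at the same scale. Its closed regions were found in OE experiment GFP and not in OE experiment ZBT, and its opened regions the other way round. The narrowest peak was 8473 bp in OE experiment GFP and 20269 bp in OE experiment ZBT. How far this difference bears on the counts was not tested. Of the opened members, 53 (15.7%) overlapped 51 of the 356 closed regions of that comparison (14.3%), and 17 (5.03%) overlapped 9 of its 377 opened regions (2.39%). Of the closed members, 11 (5.64%) overlapped 11 of its 377 opened regions (2.92%), and 24 (12.3%) overlapped 26 of its 356 closed regions (7.3%). Over the whole lists of that comparison, 27.7% of 1283 regions were closed and 31.4% of 1199 were opened. By list membership, 20.7% of opened and 14.4% of closed members were in OE experiment GFP and not in OE experiment ZBT. Over all regions of the respective list these shares were 9.89% and 7.38%. The reverse pattern held for 10.7% and 7.69% of members, against 4.23% and 3.01%.

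The targeted gene gives no check of the labels here. Zbtb7a held no peak in either list, and the nearest lay 522.9 kb away in GFP CSDS and 522.7 kb away in Zbt-KD CSDS. Of 10 marker genes each for astrocytes, neurons, oligodendrocyte lineage and microglia, none had its start in a peak of either list, and Map2 alone had a peak on its body, in GFP CSDS. The lists can therefore not check the astrocyte label. Of the 6 study genes in the naming rule, 0 held a peak in either list, among them the glutamate transporter gene Slc1a2, the stress response gene Fkbp5 and the complement gene C4b.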

How the data were processed

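Male mouse OFC astrocytes were profiled by ATAC-seq in 32 samples of 6 groups, and 1 annotated peak list per group was used. Per the methods, HISAT2 was used by the authors for alignment to mm10, after which they kept unique reads without duplicates (SAMtools) and called peaks with MACS 2.1 (no model, shift of -100 bases, extension of 200 bases) at a stated FDR of 0.05; no source used here says how a group's samples were joined. The deposited values were each peak's fold enrichment (a ratio to the local background), its q-value and its distance to the nearest TSS. The highest q-value was 2.15e-04 in Zbt-KD CSDS and 2.10e-04 in GFP CSDS. Starts were read as 1-based. Regions were built, merged and overlapped with Python 3.11.15, numpy 2.4.6 and pandas 2.3.3, and this was checked on 3000 simulated regions. A merged region took the fold, annotation and distance of its strongest peak. With 1 list per group there were no replicates to test, so counts and shares with 95% Wilson intervals are given. Per direction, the text names the 6 regions of highest fold, the 4 widest, up to 3 per function group and up to 12 with a coding start, besides the study genes and markers; runs along genes were named after their values were seen. The members and lists were chosen with earlier results of these data known. Alternatives changed the merging, width, overlap, strength, chromosomes and gene assignment. Columns of per-sample values without a sample numbered 0. The values of 1 region that the naming rule covers are not reported here.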

Additional observations from a re-analysis of the deposited data

Results flagged for a closer look

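Chromosome X lay outside the rule, and the same steps found differences there too. On it, 30 of 148 Zbt-KD CSDS regions were opened (20.3%, 95% Wilson interval 14.6 to 27.5), covering 0.934 Mb, with nearest genes that included Htr2c, which encodes a serotonin receptor, and Fgf13, which encodes a partner of sodium channels. In the other direction, 45 of 174 GFP CSDS regions were closed (25.9%, 19.9 to 32.8), covering 1.46 Mb, with nearest genes that included Heph, which encodes a copper-dependent ferroxidase, and Tbl1x, which encodes a subunit of a corepressor complex. With chromosome X added, 139 of 368 opened and 88 of 240 closed regions were found in Zbt-KD control, and 65 and 51 in GFP control. No test was made of these counts.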

How the results depend on the processing

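Of 96 alternatives of the region results, 73 kept shares within the 95% Wilson interval of the value reported, or counts within 1.5 times of it, and 23 did not. With the lists as deposited, 22% of Zbt-KD CSDS peaks were opened, and 1307 GFP CSDS peaks (38.3%) were closed; 26.2% of opened and 26% of closed peaks were then found in GFP control. A doubled width minimum left 213 opened regions (23.1%). A doubled merging gap left 206 opened regions (22%), of which 22.8% were in GFP control. The upper 50% of peaks by fold enrichment gave 59 opened regions (9.97%), with 28.8% in Zbt-KD control and 32.2% in GFP control, and 29.7% of regions closed, with 35.1% in GFP control. Opened regions free of every deposited GFP CSDS peak were 22%, since 78 hold a narrow one. Otherwise the cause was not tested. Of 68 alternatives of the function group counts, 45 moved: nearest genes within 100 kb kept 73 of 127 opened regions in any group, and overlapped genes gave 47. No paired analysis was possible because each group has 1 list with no replicate columns, and leaving out a replicate could not be done. Depth was unknown, and the GFP CSDS list holds narrower peaks than the Zbt-KD CSDS list, so that the lists differ in resolution along with the groups.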
